A study of Rattus norvegicus with 12 samples.

Results

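The genes described here encode the proteasome, the cylindrical protease that degrades ubiquitin-tagged proteins. They were taken as all rows of the deposited table of detected genes whose symbol starts with Psma to Psmg followed by a digit, without the immunoproteasome genes Psmb9, Psmb10, Psme1 and Psme2. The rule returned 43 of 13733 genes. Of these, 42 encode subunits, assembly chaperones, activators or the inhibitor of the proteasome. The remaining gene, Psmc3ip, is only named after a subunit and encodes a meiotic recombination factor. The rule used names and no measured value.

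To learn which transcripts respond when mt-tRF-LeuTAA is inhibited, a piece of a leucine tRNA encoded in mitochondria, the study transfected dispersed islet cells of adult 3-month-old male Wistar rats with 30 pmol of single-stranded oligonucleotides by lipofection. The anti-mt-tRF-LeuTAA group (n = 6) received an antisense oligonucleotide against the fragment and the anti-control group (n = 6) a scrambled one, and both were kept for 72 h at 11 mM glucose before stranded total RNA libraries were made. Each n was the islets of a single rat, and the libraries carry the numbers 1 to 6 in both groups. The fragment is a small RNA outside the gene table, so its own level was not analysed here. Islets are mixtures of cell types, and in bulk RNA a smaller number of cells of a type cannot be told apart from less RNA per cell.

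The 26S proteasome joins a 20S core to a 19S cap. The core is a barrel of alpha subunits (Psma genes) at the ends, which form a gate, and beta subunits (Psmb genes) inside, of which Psmb5, Psmb6 and Psmb7 carry the peptide-cleaving sites. The cap binds ubiquitin chains, removes them and threads the protein into the core with a ring of ATPases (Psmc genes). Chaperones of the Psmg family build the core, and Psmd5, Psmd9 and Psmd10 build the base of the cap. In mammalian cells the transcription factor Nfe2l1 raises proteasome genes together through antioxidant response elements when the protease is short, and beta cells, which make large amounts of proinsulin, depend on the proteasome to clear misfolded protein from the endoplasmic reticulum.

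Promoter sequence was taken from RefSeq (assembly GRCr8, windows of 250 bases before and 50 after the annotated start), which gave 39 of the 43 genes. Psma7, Psmd12, Psmd14 and Psmd6 were not matched. Each window was searched on both strands for short motifs, and the shares below describe letters in a window, not binding. The ETS motif CCGGAAG, bound by the GABP class of activators, was in 15 of the 39 windows (38.5%) against 16.5% of the 10405 windows of all measured genes. The NF-Y box CCAAT was in 53.8% against 37.2%, the GC box GGGCGG in 71.8% against 61.4%, and the antioxidant response element core TGACNNNGC in 20.5% against 14.7%. The cAMP response element TGACGTCA (2.56% against 3.18%) and GCATGCGC, a part of the NRF-1 palindrome (2.56% against 4.82%), were each in 1 window. The cAMP response element shares its first letters, TGAC, with the antioxidant core. In its 1 window, that of Psmb2, the sites were separate, at 90 and 68 bases before the start.

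The following stretches are shown because they belong to the genes called higher in anti-mt-tRF-LeuTAA, described further on. Coordinates are GRCr8. Each is written 5′ to 3′ on the gene's own strand, ends at most at the last base before the start, and has the ETS motif (either orientation, CCGGAAG or CTTCCGG) in capitals.
Psmc2, chr4:14162391-14162426, minus strand: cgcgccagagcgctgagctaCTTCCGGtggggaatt
Psmb4, chr2:185134562-185134603, minus strand: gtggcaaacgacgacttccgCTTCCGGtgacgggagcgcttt
Psmd4, chr2:185297323-185297369, minus strand: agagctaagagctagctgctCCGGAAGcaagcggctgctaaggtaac
Psmg1, chr11:48755116-48755162, minus strand: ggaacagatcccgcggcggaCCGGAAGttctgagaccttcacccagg

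These 4 are 4 of the 5 genes called higher. The fifth, Psmd9, held no ETS motif but the antioxidant core, which is in capitals in the next stretches. Psmd9 held this core on both strands, forward at 77 and opposite at 124 bases before the start, and only the forward one is shown. Psme4, called lower, held the same core on the opposite strand, and so did Psmb5 and Psmb6 in the forward direction, the genes of 2 of the active-site subunits, neither of which was called.
Psmd9, chr12:39018313-39018361, minus strand: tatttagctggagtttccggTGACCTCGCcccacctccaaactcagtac
Psme4, chr14:108706568-108706616, plus strand: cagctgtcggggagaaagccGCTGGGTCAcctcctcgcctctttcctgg
Psmb5, chr15:32047411-32047459, minus strand: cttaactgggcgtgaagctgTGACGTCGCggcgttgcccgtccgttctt
Psmb6, chr10:55737844-55737887, plus strand: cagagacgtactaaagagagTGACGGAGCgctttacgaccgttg

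Both motifs also occurred outside the genes called higher, and their shares among called and other genes were not compared. ETS windows also belonged to Psma6, Psmb7, Psmc1, Psmc6, Psmd11, Psmd13 and others without a call and to Psme4, called lower, and the antioxidant core also to Psma3, Psmb2, Psmd1 and Psmd3.

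As a group, the proteasome genes stayed close to no change. Values are deposited log2 CPM (log2 of reads scaled to library size, after a prior count), and differences are anti-mt-tRF-LeuTAA minus anti-control, so that a positive value is higher in anti-mt-tRF-LeuTAA. The median log2 fold change of the 43 genes was 0.018, beside −0.036 over all genes and −0.061 over genes at or above the median level. The individual values ran from −0.56 to 0.39. With limma over all genes and a Benjamini-Hochberg adjusted p of at most 0.05, 5 of the 43 were called higher (11.6%, against 10.9% of all genes) and 2 lower (4.65%, against 4.65% of all genes). Among genes at or above the median level of 4.46 log2 CPM, fitted alone, 7.06% were called higher and 7.25% lower. Of the 43 genes, 37 lie at this level, and 5 of them were called higher and 1 lower in that fit. None of the 43 genes reached 2-fold in either direction, where 5.82% of all genes were called at least 2-fold higher and 0.0583% at least 2-fold lower. These 2-fold shares were not taken among genes at or above the median level. An unadjusted p under 0.05 was found for 9 of the 43, and for 28.3% of all genes.

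Because the numbers were read as marking rats, the fit was also made with the number as a block. The fit without block leaves this pairing out, and called refers to it wherever the block is not named. The median SE of the 43 genes was 0.0795 without the block and 0.0532 with it. The blocked fit kept all 7 calls and added Psma5, Psma6 and Psmd3. It gave 7 higher (16.3%, against 17.6% of all genes) and 3 lower (6.98%, against 17.7%). These blocked counts depended on the scaling of the libraries. With scaling by total reads alone, 13 were higher (30.2%, against 21.4% of all genes) and 2 lower (4.65%, against 10.3%), and with quantile normalization 11 higher (25.6%, against 18.2%) and 1 lower (2.33%, against 23.2%). The groups of 6 libraries did not overlap for 4 genes, 3 higher (against 7.92% of all genes) and 1 lower (against 2.27%). A gene was higher in all 6 rats for 11 genes and lower in all 6 for 4, where all genes gave 17.3% and 16.6%.

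The small differences were measured closely. The 95% interval of the fold change lay within 1.5-fold of no change for 38 of the 43 genes in the fit without block, where 50.1% of all genes and 73.5% of those at or above the median level did. With the block it did for 40, against 63.8% and 87.3%. The genes outside were Psmb8, Psmg2, Psmd9, Psmd10 and Psmc3ip without the block. The median SD over the anti-control libraries was 0.147 for these genes and 0.266 for all genes, and 37 of the 43 lay at or above the median level of all genes.

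**Figure D1:**
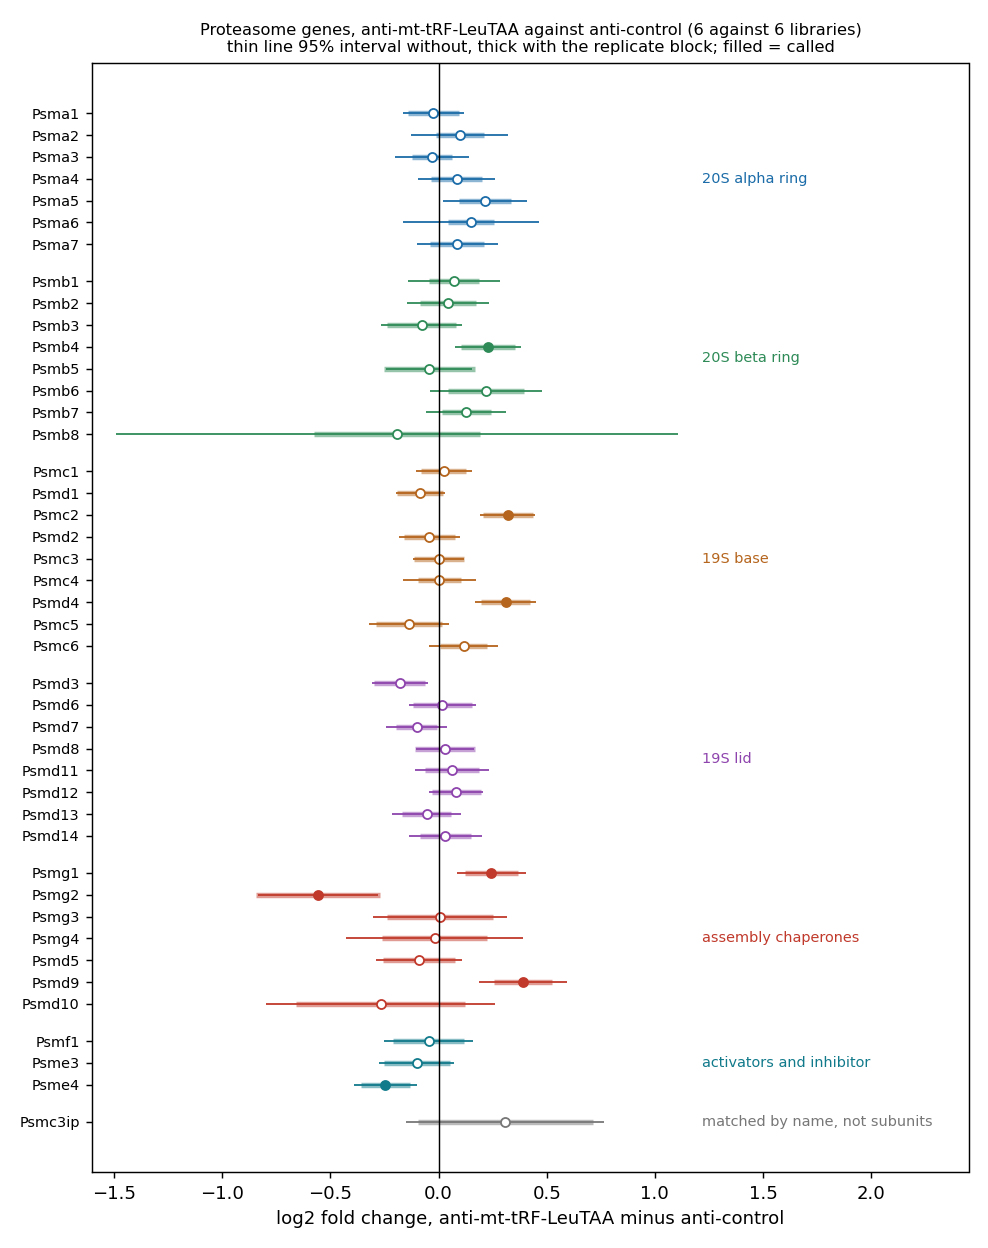
Log2 fold change (x axis, anti-mt-tRF-LeuTAA minus anti-control, 6 libraries each) of the 43 genes, grouped by role. Points are estimates, thin lines the 95% interval of limma without the block and thick lines with it, and filled points were called without the block. The 7 filled points are Psmb4, Psmc2, Psmd4, Psmg1 and Psmd9 to the right of 0 and Psmg2 and Psme4 to the left, and the interval of Psmb8 is the widest.

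In the alpha ring, which gates the core, none of the 7 genes was called without the block, and their log2 fold changes ran from −0.03 to 0.21 (median 0.09). Psma5 had a lowest, median and highest level of 5.95, 6.30 and 6.41 log2 CPM in anti-control and 6.27, 6.46 and 6.60 in anti-mt-tRF-LeuTAA. The groups overlapped, but the level was higher in each of the 6 rats, by 0.08 to 0.39. Its log2 fold change was 0.21 (SE 0.089, limma adjusted p = 0.131), and with the block the adjusted p was 0.0127. Psma6 was also higher in each rat, by 0.01 to 0.24, with a log2 fold change of 0.15 (limma adjusted p = 0.564, and 0.0334 with the block). The other 5 genes, Psma1, Psma2, Psma3, Psma4 and Psma7, were called in neither fit.

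In the beta ring, 1 of 8 genes was called. Psmb4 is a structural subunit without a cleaving site (gene on chromosome 2, 196043618 to 196046311, minus strand, Rnor_6.0). Its level was 6.59, 6.85 and 6.97 log2 CPM (lowest, median, highest) in anti-control and 6.92, 7.08 and 7.15 in anti-mt-tRF-LeuTAA. It was higher in all 6 rats although the groups overlapped, by a log2 fold change of 0.23 (SE 0.070, 1.17-fold, limma adjusted p = 0.0425, and 0.0108 with the block). When single libraries were left out of the fit without block, the gene passed in 3 of 12 cases, and its adjusted p reached 0.0938 without anti-mt-tRF-LeuTAA replicate 1 and 0.0698 without the trend.

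The active-site subunits were not called. Psmb5, the chymotrypsin-like site, had levels of 5.44, 5.64 and 5.90 log2 CPM in anti-control and 5.40, 5.59 and 5.84 in anti-mt-tRF-LeuTAA. The groups covered nearly the same range, and 2 of 6 rats were higher, with a log2 fold change of −0.04 (95% interval −0.24 to 0.16, limma adjusted p = 0.821). The sign turned when libraries were scaled by total reads alone (0.03).

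Psmb6, the caspase-like site, lay at 4.34, 4.49 and 4.84 log2 CPM in anti-control and 4.49, 4.69 and 5.12 in anti-mt-tRF-LeuTAA. It was higher in 6 of 6 rats, with a log2 fold change of 0.22 (95% interval −0.04 to 0.48, limma adjusted p = 0.256, and 0.0562 with the block). Psmb7, the trypsin-like site, lay at 5.56, 5.69 and 5.99 log2 CPM and 5.60, 5.87 and 6.00. It was likewise higher in 6 of 6 rats, by 0.01 to 0.21, with a log2 fold change of 0.13 (95% interval −0.06 to 0.31, limma adjusted p = 0.368, and 0.0770 with the block). Neither passed in either fit. Psmb7 overlaps another gene, Nek6, in the annotation of the files, so its reads may be shared.

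In the base of the cap, which unfolds the substrate, 2 of 9 genes were called, both higher, and the other 7 had log2 fold changes from −0.14 to 0.12. Psmc2 is an ATPase of the ring (chromosome 4, 9867101 to 9881484, minus strand, Rnor_6.0). Its level was 7.20, 7.28 and 7.36 log2 CPM in anti-control and 7.51, 7.57 and 7.76 in anti-mt-tRF-LeuTAA. All 6 anti-mt-tRF-LeuTAA libraries lay above all 6 anti-control libraries, and the rats differed by 0.17 to 0.45. The log2 fold change was 0.32 (SE 0.058, 1.25-fold, limma adjusted p = 0.0020), the smallest adjusted p of the 43 genes.

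Psmd4 is a ubiquitin receptor of the cap (chromosome 2, 196198038 to 196207560, minus strand, Rnor_6.0). Its level was 6.66, 6.78 and 6.88 log2 CPM in anti-control and 6.98, 7.03 and 7.25 in anti-mt-tRF-LeuTAA. Here too the groups did not overlap, at a log2 fold change of 0.31 (SE 0.065, 1.24-fold, limma adjusted p = 0.0056). Both calls held in all 12 fits without 1 library. The partners of Psmc2 in the ATPase ring were not called. Psmc1, Psmc3, Psmc4, Psmc5 and Psmc6 had log2 fold changes of 0.02, 0.00, 0.00, −0.14 and 0.12. The scaffold subunits Psmd1 and Psmd2 had −0.08 and −0.04. Psmd1 overlaps Htr2b in the annotation.

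In the lid, which removes ubiquitin chains, none of 8 genes was called without the block, with log2 fold changes from −0.18 to 0.08. Psmd3 had levels of 6.74, 6.89 and 7.02 log2 CPM in anti-control and 6.58, 6.71 and 6.81 in anti-mt-tRF-LeuTAA. It was lower in 6 of 6 rats, by 0.06 to 0.33. The log2 fold change was −0.18 (SE 0.060, limma adjusted p = 0.0617), and with the block the adjusted p was 0.0253. That call held in 3 of the 6 blocked fits that left out 1 rat. Psmd7 was also lower in 6 of 6 rats, with −0.10 (limma adjusted p = 0.352, and 0.0926 with the block). Psmd14, the deubiquitinase of the lid, had a log2 fold change of 0.03.

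The assembly chaperones held the largest difference in each direction, with 2 of 7 called higher and 1 lower. Psmg1 and Psmg2 form a pair that starts the alpha ring. Psmg1 (chromosome 11, 36327800 to 36337256, minus strand, Rnor_6.0) lay at 4.91, 4.95 and 5.15 log2 CPM in anti-control and 5.08, 5.18 and 5.41 in anti-mt-tRF-LeuTAA. It was higher in 6 of 6 rats, with a log2 fold change of 0.24 (SE 0.074, 1.18-fold, limma adjusted p = 0.0416, and 0.0081 with the block). The groups overlapped, and without the block the call was lost in 10 of the 12 fits without 1 library, with an adjusted p of up to 0.0954 without anti-mt-tRF-LeuTAA replicate 4, and with median-of-ratios scaling or without the trend (up to 0.0534).

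Its partner Psmg2 (chromosome 18, 63394900 to 63409600, plus strand, Rnor_6.0) fell by 0.56 on the log2 scale, the largest difference of the 43 genes. The level was 3.49, 3.66 and 4.01 log2 CPM in anti-control and 2.89, 3.18 and 3.32 in anti-mt-tRF-LeuTAA. The groups did not overlap, and rats differed by −0.98 to −0.18. The fall was 1.47-fold (SE 0.13 on the log2 scale, limma adjusted p = 0.0093, and 0.0085 with the block) and held in all 12 fits without 1 library. The partners of the next step of assembly, Psmg3 and Psmg4, had log2 fold changes of 0.01 and −0.02 and were not called.

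Psmd9, a chaperone of the base (chromosome 12, 38786540 to 38805121, minus strand, Rnor_6.0), had the largest rise. Its level was 4.20, 4.39 and 4.59 log2 CPM in anti-control and 4.61, 4.74 and 5.04 in anti-mt-tRF-LeuTAA. The groups did not overlap, and rats differed by 0.30 to 0.51. The log2 fold change was 0.39 (SE 0.094, 1.31-fold, limma adjusted p = 0.0129, and 0.0011 with the block), and the call held in all 12 fits without 1 library. The other base chaperones, Psmd5 and Psmd10, had log2 fold changes of −0.09 and −0.27, the latter with a 95% interval of −0.80 to 0.26, and were not called.

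Of the activators and the inhibitor, 1 of 3 was called. Psme4, which encodes the large activator PA200 that opens the core without the cap (chromosome 14, 115166416 to 115269056, plus strand, Rnor_6.0), lay at 7.83, 7.96 and 8.06 log2 CPM in anti-control. The anti-mt-tRF-LeuTAA libraries lay at 7.50, 7.70 and 7.85. It was lower in 6 of 6 rats by 0.12 to 0.35, with a slight overlap of the groups. The log2 fold change was −0.25 (SE 0.067, 1.19-fold lower, limma adjusted p = 0.0258, and 0.0047 with the block). Without the block the call was lost in 5 of the 12 fits without 1 library, with an adjusted p of up to 0.0586 without anti-control replicate 3, and with quantile normalization or scaling by total reads alone (up to 0.344). Psme3, a nuclear activator, and Psmf1, the inhibitor, had log2 fold changes of −0.10 and −0.05 and were not called. Psme3 overlaps another annotated gene. Psmc3ip, at 1.30 to 2.54 log2 CPM in anti-mt-tRF-LeuTAA and 1.41 to 1.76 in anti-control, was not called either (0.31, limma adjusted p = 0.385). It overlaps Mlx in the annotation.

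**Figure D2:**
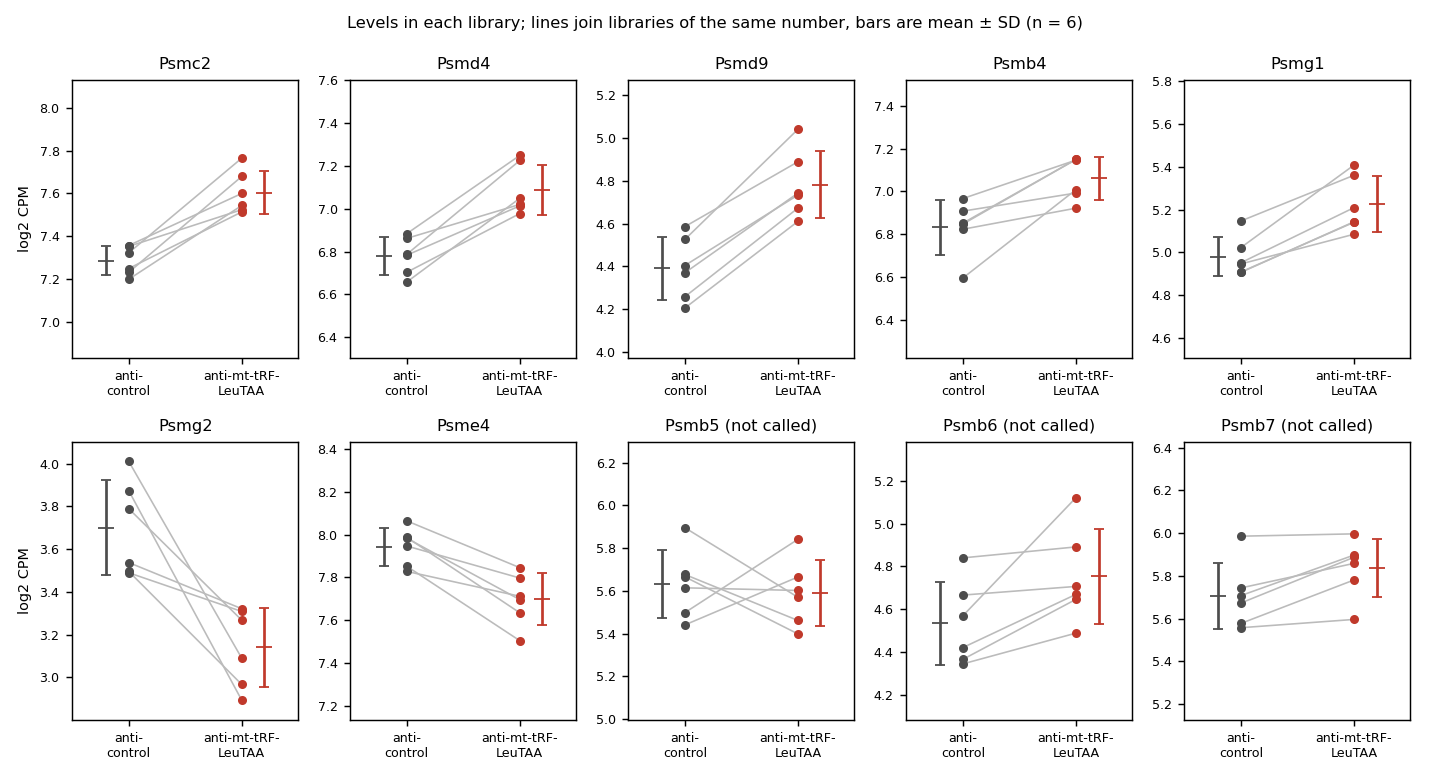
Level in log2 CPM (y axis, each panel spanning 1.3 units) in every library for the 7 called genes and the 3 active-site subunits. Grey points are anti-control and red points anti-mt-tRF-LeuTAA, lines join libraries of the same number, and the bars beside them are mean ± SD (n = 6). Lines of Psmc2, Psmd4 and Psmd9 all rise and those of Psmg2 all fall between groups that do not overlap, whereas lines of Psmb5 go both ways.

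Summed over genes, the 14 constitutive core subunits (Psma1 to Psma7 and Psmb1 to Psmb7) took 1385 ± 135 CPM in anti-control and 1459 ± 118 CPM in anti-mt-tRF-LeuTAA (SD, n = 6). The 17 cap subunits took 2253 ± 107 and 2281 ± 75.2 CPM. The differences between group means were smaller than the SD within a group, which includes the spread between rats and is not the error of the difference. Within rats, the core sum was higher in 5 of 6, by −27.7 to 182 CPM (mean 74.7, SD 75.2), and the cap sum in 3 of 6, by −77.8 to 143 CPM (mean 28.4, SD 99.2). The lowest core sum was that of anti-control replicate 6 (1153 CPM), a library in which 35 of the 43 genes lay under their own mean over the 12 libraries. Its rat partner, anti-mt-tRF-LeuTAA replicate 6, had 1335 CPM and 31 genes under their mean.

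Psmb8 behaved unlike the other beta genes. It replaces Psmb5 in the immunoproteasome, the form induced by interferon gamma that cuts peptides for antigen presentation. Its level was 1.90, 3.92 and 5.55 log2 CPM in anti-control and 2.22, 4.08 and 5.0 in anti-mt-tRF-LeuTAA, so that rats differed far more than groups. The order of libraries was similar in both groups, with replicate 2 highest and replicate 6 lowest. The log2 fold change was −0.19 with an SE of 0.60 without the block and 0.17 with it (limma adjusted p = 0.877 and 0.410), and 3 of 6 rats were higher.

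The immunoproteasome genes left out by the rule, given here for comparison, also ran from replicate 2 as the highest to replicate 6 as the lowest in both groups. Without the block none of the 4 was called (background 10.9% higher and 4.65% lower), and with it all 4 were, 2 higher and 2 lower (background 17.6% and 17.7%). Psmb9, which replaces Psmb6, was lower in 6 of 6 rats by 0.30 to 1.33 (log2 fold change −0.73, limma adjusted p = 0.443, and 0.0029 with the block). Psmb10, which replaces Psmb7, was higher in 6 of 6 rats by 0.27 to 0.76 (0.46, 0.277 and 0.0014). For the subunits of the interferon-induced activator, Psme1 was lower in 6 of 6 rats (−0.15, limma adjusted p = 0.580, and 0.0450 with the block) and Psme2 higher in 6 of 6 (0.29, 0.372 and 0.0106). Subunits that work in the same particle thus differed in sign. Of the cell type markers, 2 of 3 measured endothelial genes (Kdr and Cdh5, not Plvap) and 1 of 6 immune genes (Ptprc) were lowest in replicate 6 in both groups. Kdr had 1.65 log2 CPM there in anti-control and 2.83 in anti-mt-tRF-LeuTAA, and 6.65 to 7.26 in replicates 1 and 2. The immune genes had no common order, since Csf1r and Lyz2 were among the higher values in replicate 6 (3.39 and 4.10 log2 CPM in anti-control, 3.15 and 4.57 in anti-mt-tRF-LeuTAA). The part of these cells in the spread between rats was not tested.

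**Figure D3:**
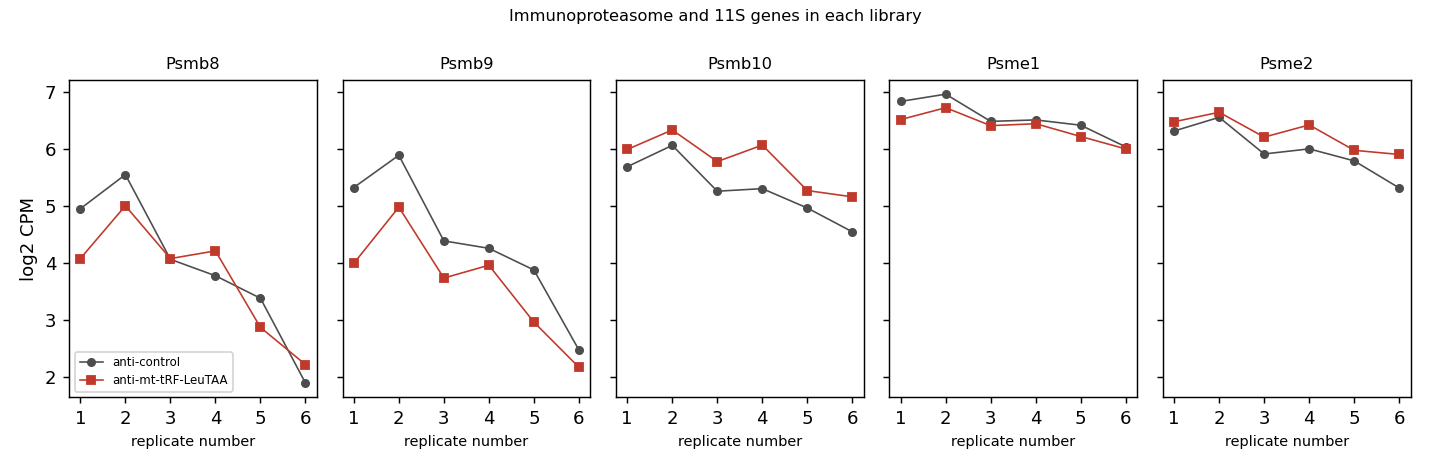
Level in log2 CPM (y axis) against replicate number (x axis, 1 rat per number, numbers have no order) for Psmb8 and the 4 related genes outside the rule. Grey circles are anti-control and red squares anti-mt-tRF-LeuTAA, joined only to guide the eye. Replicate 2 is the highest and replicate 6 the lowest in each panel and group, red lies under grey in every rat for Psmb9 and above it for Psmb10.

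Factors around the proteasome were read from lists, whose counts stand beside the background of 10.9% higher and 4.65% lower in the fit without block and of 17.6% and 17.7% in the fit with it. Of 15 measured factors that bind the proteasome, 2 were called higher and 0 lower. Uchl5, a deubiquitinase of the cap, lay at 3.68 to 4.41 log2 CPM in anti-control and 4.57 to 4.84 in anti-mt-tRF-LeuTAA, without overlap (0.55, SE 0.12, limma adjusted p = 0.0065). Its receptor Adrm1 had a log2 fold change of 0.11 and was not called, and the other cap deubiquitinase, Usp14, had −0.06. Ecpas, which tethers the proteasome to other organelles, rose by 0.17 (SE 0.051, limma adjusted p = 0.0384). With the block 4 of the 15 were higher and 1, the shuttle factor Ubqln2 (−0.34, limma adjusted p = 0.0022), lower.

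None of 5 measured regulators of proteasome genes was called without the block. Nfe2l1, the main one, had a log2 fold change of −0.13 (limma adjusted p = 0.231, and 0.116 with the block), Hsf1, of the heat shock response, 0.12 (0.330 and 0.143), and Ddi2, the protease that activates the Nfe2l1 product, 0.12 (0.428 and 0.0643). Nfe2l2, a relative of Nfe2l1 in the oxidative stress response, had 0.23 (0.374), and was called higher with the block (0.0204). None of 7 measured genes for p97 (Vcp) and its cofactors and none of 6 rows of ubiquitin and E1 genes was called without the block. With it, Faf1 was higher (0.17, limma adjusted p = 0.0362, and 0.141 without the block) and Nploc4 lower (−0.19, 0.0357 and 0.218). Uba1, the ubiquitin-activating enzyme, was also lower with the block (−0.20, 0.0499, and 0.187 without it). The second such enzyme, Uba6, was called in neither fit (−0.09, 0.501 without the block).

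As complexes of like build, the COP9 signalosome, whose subunits resemble those of the lid, had 0 of 10 called without the block and 2 higher (Cops2 and Cops3) and 1 lower (Cops6) with it. The closest in the fit without block were Cops3 (0.19, limma adjusted p = 0.0564) and Cops2 (0.21, 0.107). The chaperonin CCT had 0 of 8 called without the block and 1 higher (Cct7) with it. Cct7 and Tcp1 had log2 fold changes of 0.14 and 0.16 (limma adjusted p = 0.359 and 0.374).

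Some genes next to the proteasome genes changed far more than these did. Of the 43, 24 had another gene on the same strand within 50 kb behind their end. Of those 24 genes, 4 were called higher, where the gene behind any expressed gene was called higher in 18.4% of cases, and 1 lower (4.17% among all). All 4 were at least 2-fold higher, against 11.4% among all. Within 10 kb there were 13, of which the same 4 were higher (30.8%, against 25.1%), each at least 2-fold (16.2% among all), and 0 lower (3.85% among all). Without the block, the share called higher within 50 kb was thus near that of genes behind other expressed genes (16.7% against 18.4%). The at least 2-fold share was larger than among all, within 50 kb (16.7% against 11.4%) and within 10 kb (30.8% against 16.2%). It rests on the same 4 genes, and the difference was not tested. With the block, 7 of the 24 genes were called higher and 3 lower, beside 17.6% and 17.7% of all genes. The shares among genes behind other expressed genes were not taken with the block.

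Wdr66, 4.53 kb behind Psmd9, had 0 to 6 reads per library in anti-control (10 in all, 3 libraries at 0) and 128 to 288 in anti-mt-tRF-LeuTAA (limma adjusted p = 3.6e-07). Psmd9 itself was called higher, with a log2 fold change of 0.39. Tbr1, a neuronal transcription factor 4.38 kb behind Psmd14, had 0 to 3 reads in anti-control (5 in all, 3 libraries at 0) and 62 to 151 in anti-mt-tRF-LeuTAA (limma adjusted p = 2.5e-07). Psmd14 itself had a log2 fold change of 0.03. Aoc3, 7.33 kb behind Psme3, had a log2 fold change of 2.73 (20 to 116 reads against 159 to 274), and Cdk5r1, 4.83 kb behind Psmd11, one of 1.26 (26 to 60 reads against 77 to 141). Neither Psme3 nor Psmd11 was called.

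Csf3, 5.597 kb behind Psmd3, had no read in 4 anti-control libraries and up to 241 in the others, and 19 to 292 reads in anti-mt-tRF-LeuTAA. It was not called without the block (limma adjusted p = 0.122) but was with it (0.0078). Whether reads were counted by strand is not stated in the labels or methods used here. Read-through from a proteasome gene into the gene behind it was not tested, since the table holds one value per gene.

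**Figure D4:**
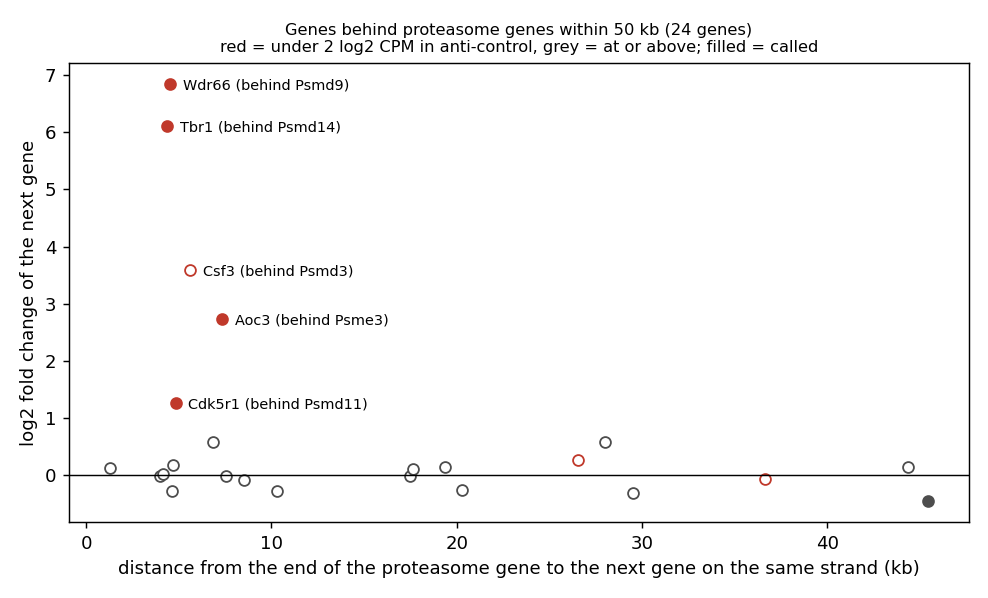
Log2 fold change (y axis) of the nearest gene on the same strand behind 24 proteasome genes against its distance in kb (x axis). Red points had a mean under 2 log2 CPM in anti-control and grey points more, and filled points were called in limma without the block. The 4 filled points far above 0, Wdr66, Tbr1, Aoc3 and Cdk5r1, lie within 10 kb, and the filled point below 0 is LOC100294508, behind Psmb2.

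In front of the proteasome genes, 23 had a neighbour on the same strand within 50 kb. Of those neighbours 7 were called higher, where 12.7% of the genes in front of any expressed gene were, and 1 lower (4.67% among all). At least 2-fold higher were 4 of the 23, against 6.46% among all. The shares called higher and at least 2-fold higher were thus above those among all without the block, and these differences were not tested. With the block, 7 of the 23 were called higher and 3 lower, beside 17.6% and 17.7% of all genes. Hykk, 3.02 kb in front of Psma4, had 3 to 30 reads per library in anti-control and 164 to 232 in anti-mt-tRF-LeuTAA (log2 fold change 4.08, limma adjusted p = 1.2e-05). Nr5a1, 47.6 kb in front of Psmb7, had 0 to 10 reads against 49 to 115 (4.05), Rapsn, 7.41 kb in front of Psmc3, 5 to 24 against 69 to 162 (2.85), and Cdh24, 15.1 kb in front of Psmb5, 40 to 81 against 256 to 438 (2.63). Psma4, Psmb7, Psmc3 and Psmb5 were themselves not called. The other 3 neighbours called higher, Pdcd2, Pmpcb and Brwd1, had log2 fold changes of 0.31, 0.31 and 0.43, and Ric8a was lower (−0.20). Pmpcb lies 27.3 kb in front of Psmc2 and Brwd1 0.379 kb in front of Psmg1, and both of these proteasome genes were called higher (0.32 and 0.24). Pdcd2 lies in front of Psmb1 and Ric8a in front of Psmd13, neither of which was called. Read-through from a gene in front into a proteasome gene was not tested.

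Psmg2 shares its upstream region with another gene. In Rnor_6.0 its start lies 134 bases from that of Cep76, a centrosomal protein gene read in the other direction. Cep76 rose by 0.88 (SE 0.074, limma adjusted p = 2.4e-06) while Psmg2 fell by 0.56. Of the other 4 genes with an opposite start within 1 kb, Psma2, Psma7, Psmc5 and Psmd13, neither the gene nor its neighbour (Mrpl32, Ss18l1, Ftsj3 and Sirt3) was called without the block. Ftsj3 was higher with it (0.29, limma adjusted p = 0.0030). The RefSeq starts of Psmg2 and Cep76 in GRCr8 are 261 bases apart, and the 120 bases before the Psmg2 start, all between the starts, are shown with the only motif found in them, a GC box, in capitals.
Psmg2, chr18:63478500-63478619, plus strand: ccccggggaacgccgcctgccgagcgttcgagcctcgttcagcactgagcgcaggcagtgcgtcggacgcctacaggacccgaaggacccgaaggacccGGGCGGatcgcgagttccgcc

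The libraries held 16.4 to 23.4 M (mega) reads in the listed genes, so that 1 read stood for less than 0.1 CPM. Taken over all genes, replicates differed beyond counting noise. Scarce genes such as Psmg2 and Psmc3ip carry a larger counting error, and it was not compared with their spread between rats. The endocrine markers were all present: 10 of 10 were measured, with a summed level of 89652 to 212510 CPM in anti-control and 96955 to 192390 in anti-mt-tRF-LeuTAA, and 0 were called without the block and 1, Pcsk2, lower with it (−0.39, limma adjusted p = 0.0127, 6 of 6 rats). Of the markers of other cells, 4 of 8 acinar, 3 of 4 ductal, 3 of 4 endothelial, 6 of 6 macrophage and immune and 4 of 5 stromal ones were measured. Ductal markers summed to 243 to 436 CPM in anti-control and 182 to 300 in anti-mt-tRF-LeuTAA and endothelial markers to 22.0 to 411 and 33.1 to 386 CPM, with 0 of either called without the block. With it, ductal Krt7 was lower (−0.36, limma adjusted p = 0.0021) and endothelial Kdr higher (0.57, 0.0045), each in 6 of 6 rats. Summed stromal levels were 955 to 3517 CPM in anti-control and 375 to 2342 in anti-mt-tRF-LeuTAA, with 0 called without the block and Col1a1 and Dcn lower with it. Immune markers summed to 53.5 to 119 and 70.4 to 102 CPM, with Cd68 called higher (2.02, in both fits), Aif1 lower with the block only (−0.95, limma adjusted p = 0.0346, 6 of 6 rats) and Cd74, Csf1r, Lyz2 and Ptprc called in neither fit, and acinar markers to 2.32 to 25.2 and 10.5 to 22.9 CPM, with Cel called higher (3.23). The part of these cells in the proteasome values was not tested.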

How the data were processed

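Stranded total RNA libraries of 6 anti-control and 6 anti-mt-tRF-LeuTAA samples were compared. The submitters' processing notes list STAR 2.5.3a and HTSeq 0.9.1 with cutadapt 1.8 and, in R 4.0.3, edgeR 3.30.3 and limma 3.44.3, on Rnor_6.0. The authors deposited log2 values for 13733 genes, which are log2 CPM with a prior count of 1, as back-transformation gave whole reads (largest deviation 5.4e-08). Columns of the authors' group means, fold changes and p-values were not used, nor were the tables of changed genes that repeat these rows. Such values understate fold changes of scarce genes.

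Groups were compared with limma 3.58.1 (R 4.3.3) over all genes with a trend and no block, Benjamini-Hochberg adjustment and a threshold of 0.05. The fit was tested on simulated data. Deviations from the group means correlated between libraries of the same number (0.474 to 0.763 over all genes, median 0.628). The best match was the own number for 5 of the 6 anti-control libraries and all 6 others. The study gives islets of 6 rats for these libraries but does not state that the numbers match between groups. The numbers were therefore read as pairing the libraries. The main fit, without the block, does not use this pairing. Over all genes, the counts called higher and lower with the block equal the counts that the study reports. Replicates differed beyond counting noise (chi-square per degree of freedom 19.1 to 258).

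The genes and lists were chosen with earlier results of these data known. Full values are given for Psmb5 to Psmb8, the smallest adjusted p of each role group, the extremes and every called gene. For 2 genes of each list at least the fold change and adjusted p are given. Others named, such as genes behind proteasome genes, were chosen after their values were seen. Alternatives were other scalings, prior count 5, voom, no trend, a level filter, a 250-base promoter window, the block and each library left out. Added after seeing the data were blocked fits without each rat and with other scalings.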

Additional observations from a re-analysis of the deposited data

Results flagged for a closer look

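In 4 of the 86 groups of 6 libraries (43 genes, 2 groups), 1 library stood apart from the others by more than Dixon's 95% limit on the gap over the range, and chance alone gives about 1 in 20. Psmd2 was 7.99 log2 CPM in anti-control replicate 3 and 8.18 to 8.28 in the others. Psmd6 was 6.79 in anti-control replicate 4 and 6.42 to 6.55 in the others. Psmd5 was 5.50 in anti-mt-tRF-LeuTAA replicate 2 and 5.83 to 6.01 in the others. Psmc3ip was 1.76 in anti-control replicate 1 and 1.41 to 1.52 in the others.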

How the results depend on the processing

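Psmc2, Psmd4 and Psmd9 stayed higher and Psmg2 lower, with an adjusted p under 0.05, in every alternative in which they could be fitted. Genes called higher numbered 5, and 3 without the trend, 13 with the block and scaling by library size (30.2%, against 21.4% of all genes), 11 with the block and quantile normalization (25.6%, against 18.2%), and 3 to 5 without 1 library. Genes called lower numbered 2, and 1 with quantile normalization, with library-size scaling, with genes at or above the median level only or with the block and quantile normalization, 4 with the block without replicate 1, and 1 to 3 without 1 library. With the replicate block and deposited scaling, 7 and 3 were called. The median log2 fold change of 0.018 was 0.089 with library-size scaling, with or without the block, which moved the median of all genes from −0.036 to 0.035, and −0.011 to 0.049 without 1 library. The cause of these shifts was not tested. Among the genes followed through these fits, signs turned for Psmb5, Psmb8 and Psmc3ip. Psmb5, at −0.04 in the main fit, was 0.029 with library-size scaling (with or without the block). It was 0.0030 with the block without replicate 2 and 0.015 with the block without replicate 5. When single libraries were left out, it ranged from −0.092 to 0.011 (above 0 without anti-control replicate 5). Psmb8 ranged from −0.60 to 0.13 in those fits (above 0 without anti-control replicates 1 and 2 and anti-mt-tRF-LeuTAA replicate 6). Psmc3ip, a scarce gene at 0.31 in the main fit, turned to −0.011 with quantile normalization, with or without the block.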
